A study of Mus musculus with 9 samples.

Results

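A set of 6 genes of extracellular adenosine metabolism and sensing were followed across regulatory T cell (Treg) libraries of 3 organs. They are Entpd1 and Nt5e, which make adenosine at the cell surface, the receptors Adora2a and Adora2b, the deaminase Ada and the surface peptidase Dpp4. The set was selected on measured values, because Entpd1 and Nt5e differed in opposite directions in the heart, and all 6 were found by gene symbol among the 49510 genes of the count table. All 6 passed the filter on low counts, which left 16609 genes. Their values in the heart against either lymphoid organ are therefore a description with no test, and the members were tested only between the mediastinal lymph node (MLN) and the spleen.

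Mice of the Foxp3-GFP strain, which report the Treg lineage factor Foxp3 by green fluorescence, were 8 weeks old. Every library was taken 3 days after cardiac ischemia/reperfusion, in which blood flow is stopped and restored, so the lymphoid groups are injured animals as well. Tregs were purified by a magnetic and a fluorescence-activated sort from the injured heart, the MLN draining it, or the spleen. RNA was amplified with a kit for very low input, and each organ has 3 libraries. The labels do not say whether these came from separate animals, so the p-values cover the spread among these libraries alone, which may be technical.

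ATP that leaves damaged cells is a danger signal. CD39, the product of Entpd1, removes phosphates from ATP and ADP to give AMP, and CD73, the product of Nt5e, turns AMP into adenosine. Adenosine acts on receptors coupled to cyclic AMP, of which that of Adora2a has high affinity and that of Adora2b low affinity, and adenosine deaminase (Ada) turns it into inosine. Mouse Tregs are known to carry both CD39 and CD73, but B cells, macrophages and endothelial cells also carry CD39, so a bulk library can hold its transcript from several sources.

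The libraries held 156194012 to 267520538 counts, and the median biological coefficient of variation between libraries of an organ was 102%. Levels are given in CPM, the share of a count in its library's total after scaling by trimmed mean of M-values, and a count of 0 allows up to 3 counts, or 0.0104 to 0.0193 CPM, in a library. This covers counting error only, because amplified reads without molecular identifiers are not independent molecules. Foxp3 stood at 31.2, 32.6 and 187.3 CPM in the spleen, 42.4, 41.8 and 46.3 in the MLN, and 8.77, 38 and 0.24 in the heart. The heart library with 0.24 CPM, replicate 3, thus held 53 Foxp3 counts, so that this gene went against its Treg label. A list of 10 Treg markers summed to 2620 to 4180 CPM in the lymphoid libraries and to 1326, 1386 and 1039 CPM in heart replicates 1, 2 and 3. Its most abundant gene, Ikzf2, had 293.5, 229.3 and 350.1 CPM in these and 936.0 to 2093 CPM in the lymphoid libraries. A list of 16 pan-T markers summed to 7524 to 9920 CPM in the lymphoid libraries and 3769 to 5555 CPM in the heart.

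Markers of other cells differed between the organs too. The 12 macrophage and monocyte markers, of which none was at 0 throughout an organ, summed to 241.3 to 766.4 CPM in the MLN, 995.5 to 2487 CPM in the spleen and 5937 to 11155 CPM in the heart. The 10 endothelial markers summed to at most 218.0 CPM in lymphoid libraries and 582.3 to 1963 CPM in the heart, with Emcn and Cldn5 at 0 throughout both lymphoid organs. The 10 fibroblast markers summed to at most 16.4 CPM in lymphoid libraries and to 22024, 2714 and 5106 CPM in the heart. The 7 mast cell markers reached 8232 and 5036 CPM in heart replicates 1 and 2 but 12.6 CPM in replicate 3, where Cpa3 was at 0. The 10 B cell markers ran the other way, from 3834 to 5133 CPM in the spleen and 887.9 to 3030 CPM in the MLN to 86.5 to 169.8 CPM in the heart, where Blk was at 0 throughout. Fewer cells of a type and less RNA per cell cannot be told apart in such bulk samples.

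**Figure D1:**
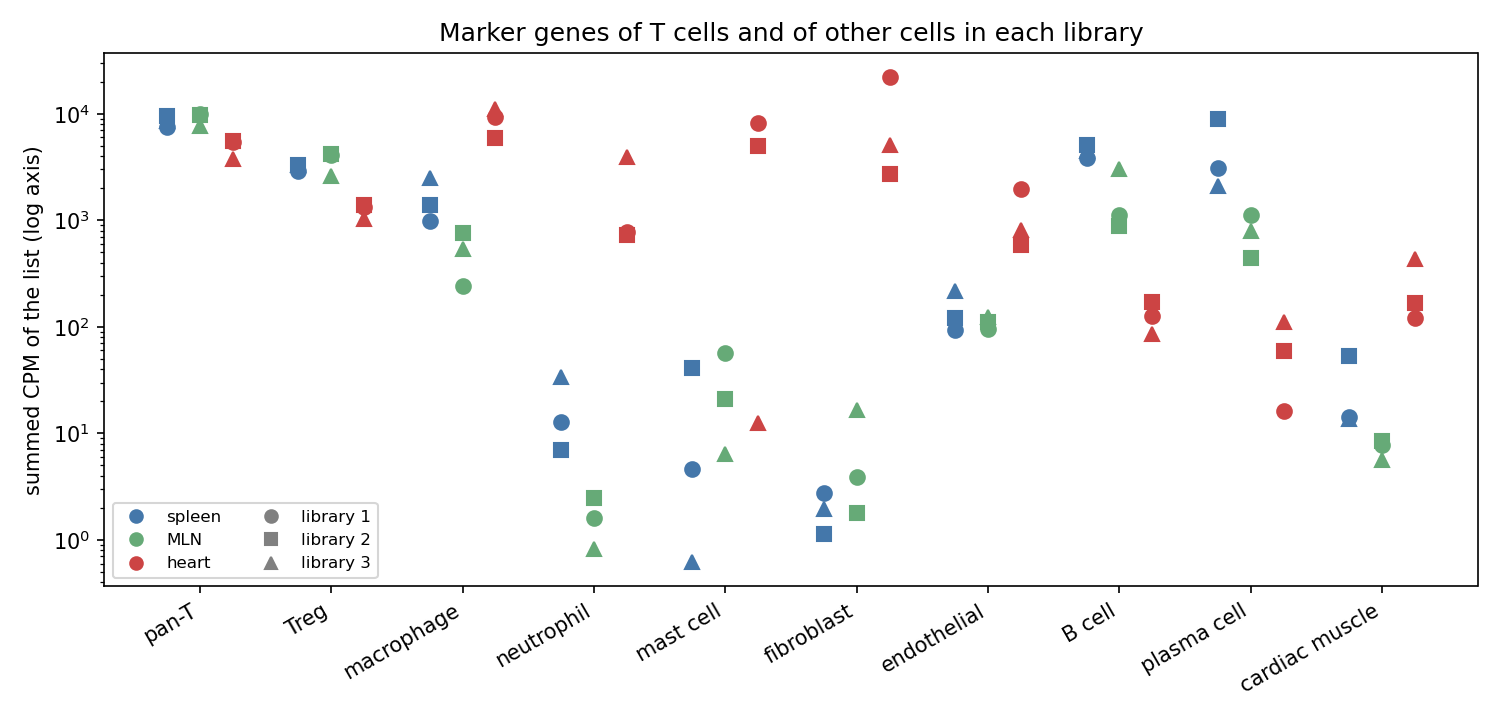
Summed level (CPM) of 10 marker lists in the 9 libraries, by organ, on a log axis. Macrophage, fibroblast and endothelial sums are highest in the 3 heart libraries, and the B cell sum is lowest there.

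Entpd1 (ENSMUSG00000048120) spans chr19:40612366-40741602 on the plus strand of GRCm38 (the assembly mm10 names). Its level was 19.6, 21.4 and 17.1 CPM in the spleen (mean 19.4 ± 2.16, SD, n = 3), 7.92, 11.7 and 7.85 CPM in the MLN (9.17 ± 2.23) and 39.5, 34.9 and 29.5 CPM in the heart (34.6 ± 5.03). No library of an organ overlapped with another organ: the MLN was lowest, the spleen between and the heart highest. The heart mean was 1.79-fold that of the spleen and 3.78-fold that of the MLN. Of the 16609 genes, 0.566% had this full order without overlap. Entpd1 was selected for its heart values, so this share is a description and no test of the gene.

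Nt5e (ENSMUSG00000032420), at chr9:88327197-88372092 on the plus strand, had the opposite pattern in the heart. It stood at 62.6, 74.5 and 96.1 CPM in the spleen (77.8 ± 17), 61.6, 101.2 and 78 CPM in the MLN (80.2 ± 19.9) and 22, 30.9 and 25 CPM in the heart (26 ± 4.51). All 3 heart libraries lay below all 6 lymphoid libraries, and the lymphoid organs overlapped. The heart mean was 2.99-fold lower than that of the spleen and 3.09-fold lower than that of the MLN. Both heart comparisons use the same heart libraries, so they are not independent.

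**Figure D2:**
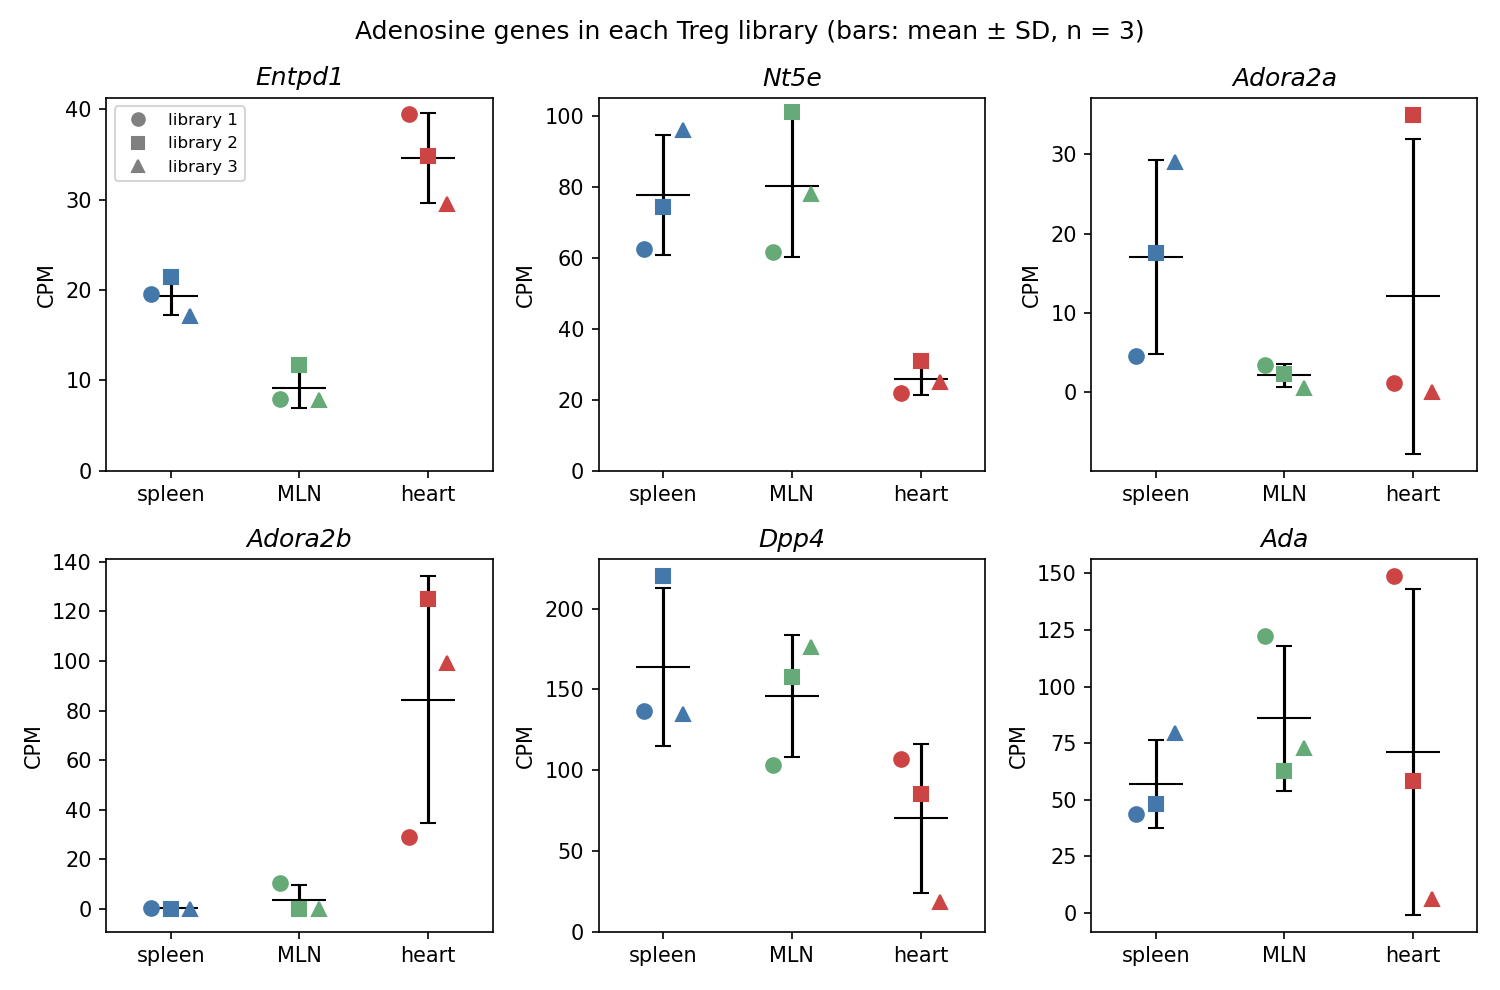
CPM of the 6 genes in each of the 9 libraries (points) with the mean and SD of each organ. Entpd1 is highest and Nt5e lowest in the 3 heart libraries, whereas Adora2a and Ada scatter widely within the heart.

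The order of Entpd1, lowest in the MLN and highest in the heart, was also that of the macrophage list, again with no overlap between organs. Within the heart, Entpd1 was lowest in replicate 3, where that list was highest. The part of these other cells in the Entpd1 and Nt5e values was not tested. Relative to the pan-T list, Entpd1 had 2.28 ± 0.314 counts per 1000 pan-T counts in the spleen, 1 ± 0.2 in the MLN and 7.13 ± 0.781 in the heart, so that its order stayed without overlap and the heart mean was 3.12-fold and 7.11-fold the others. On the same scale Nt5e stood at 9.12 ± 1.77, 8.86 ± 2.3 and 5.41 ± 1.29. Its heart libraries then lay below those of the spleen but overlapped with the MLN, with means 1.68-fold and 1.64-fold lower. Scaling to the pan-T list raises heart values of genes in general. In the fit it moved the median log2 difference of all genes from 0.02 to 0.83 against the spleen. Against the MLN the median moved from 0.12 to 1.01. Without heart replicate 3, the library with few Foxp3 counts, the fitted log2 differences of the heart from the spleen and from the MLN were 0.94 and 2.02 for Entpd1 and -1.55 and -1.60 for Nt5e.

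Per kilobase of exon, the ratio of Entpd1 to Nt5e set the organs apart in every library. The pair was selected for opposite differences in the heart, so a separate heart ratio follows from the selection and is a description only. It was 0.483, 0.442 and 0.274 in the spleen (0.4 ± 0.111), 0.198, 0.179 and 0.155 in the MLN (0.177 ± 0.0215) and 2.77, 1.74 and 1.82 in the heart (2.11 ± 0.57). On this scale the transcript of the ATP-hydrolysing enzyme was the more abundant of the pair in the 3 heart libraries. That of the AMP-hydrolysing enzyme was in the 6 lymphoid libraries. The scale takes all merged exons, 5.58 kilobases for Entpd1 and 8.6 for Nt5e, and which transcripts were in use was not examined.

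**Figure D3:**
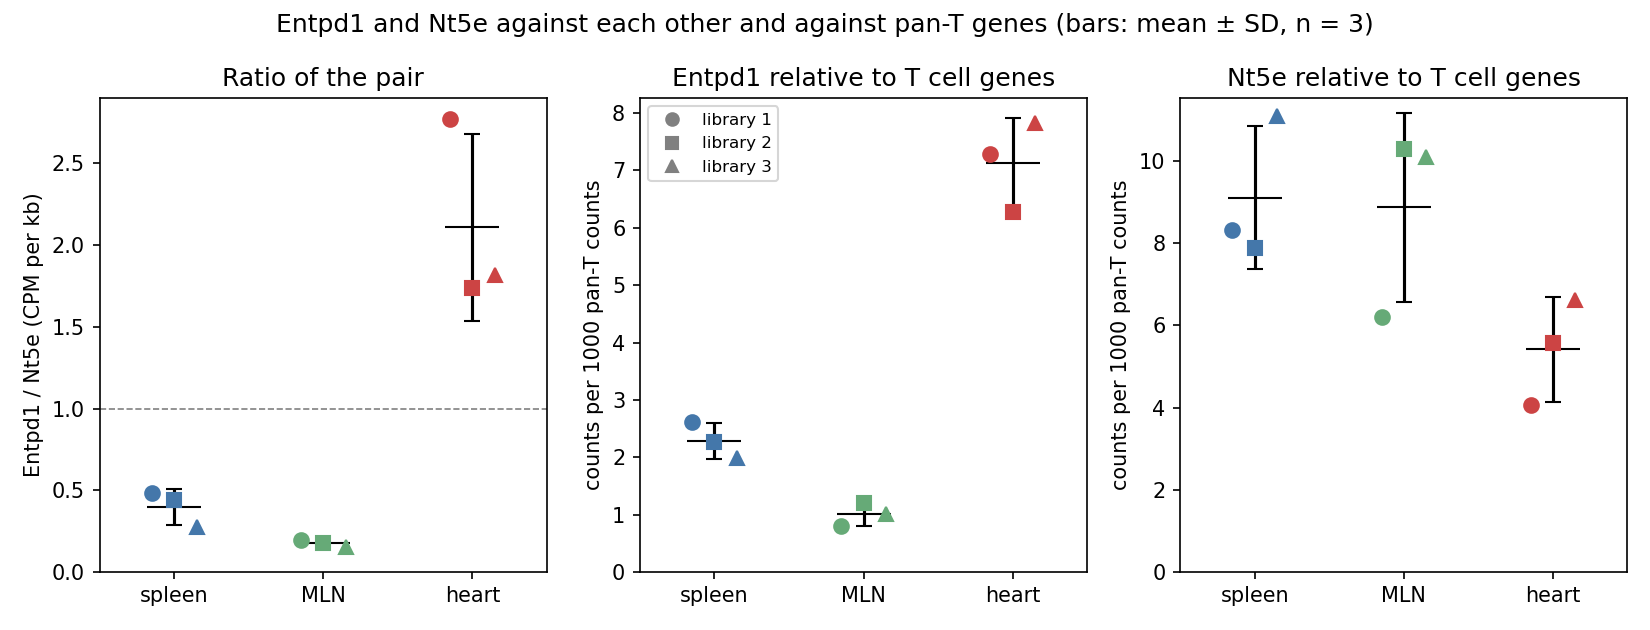
Left, ratio of Entpd1 to Nt5e (each in CPM per kilobase of exon) in the 9 libraries, with a dashed line at 1; middle and right, each gene in counts per 1000 pan-T counts; bars give the mean and SD of 3 libraries. The heart ratios lie at 1.74 to 2.77 and the lymphoid ratios at 0.155 to 0.483.

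The 250 bases before the annotated start sites of Entpd1 and Adora2b are shown because these are the members whose heart libraries lay above every lymphoid library. They come from RefSeq (GRCm38.p6), which gave windows for 5 of the 6 members, 6 windows in all. Capitals mark the letters GCGTG (in Adora2b read on the reverse strand as CACGC), the core of a hypoxia response element, and TGACG (here on the reverse strand as CGTCA), a core of cyclic AMP response elements. The first Entpd1 window is chr19:40612116-40612365, the second chr19:40659520-40659769, and that of Adora2b chr11:62248734-62248983, all on the plus strand.
Entpd1 first start site: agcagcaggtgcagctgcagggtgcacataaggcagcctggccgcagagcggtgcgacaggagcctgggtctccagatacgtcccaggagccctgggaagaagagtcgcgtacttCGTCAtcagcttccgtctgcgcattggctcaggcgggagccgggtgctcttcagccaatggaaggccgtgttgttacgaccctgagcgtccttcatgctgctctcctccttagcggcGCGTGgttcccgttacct
Entpd1 second start site: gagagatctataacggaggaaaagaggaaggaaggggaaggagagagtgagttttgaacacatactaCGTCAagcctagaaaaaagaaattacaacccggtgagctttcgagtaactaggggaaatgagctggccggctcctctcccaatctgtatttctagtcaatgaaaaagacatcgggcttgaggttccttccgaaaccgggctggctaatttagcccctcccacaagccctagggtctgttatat
Adora2b: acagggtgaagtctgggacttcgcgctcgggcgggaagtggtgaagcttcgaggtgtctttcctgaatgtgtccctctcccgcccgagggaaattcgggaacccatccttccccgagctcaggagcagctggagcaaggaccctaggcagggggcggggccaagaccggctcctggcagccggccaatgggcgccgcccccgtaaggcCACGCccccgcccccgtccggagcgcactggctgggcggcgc

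Searched on both strands, GCGTG was in 3 of the 6 member windows (Nt5e, Adora2b and the first of Entpd1) and in 28.2% of all 32851 promoter windows of this length. It lay 18 bases before the first Entpd1 start and 42 bases before that of Adora2b. TGACG was in 2 of 6 windows, both of Entpd1, against 17.8% of all. The other hypoxia core searched, ACGTG, was in 0 of 6 against 16.6%, and the forkhead core TGTTTNC in 0 of 6 against 17.8%. The letters are a description of these windows only.

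Adora2b (ENSMUSG00000018500; chr11:62248984-62266453, plus strand) encodes the low-affinity receptor. It had 28.9, 125.2 and 99.2 CPM in the heart (84.5 ± 49.8). It was at 0 in 4 of the 6 lymphoid libraries, and the remaining ones held 0.309 CPM (spleen replicate 1, 48 counts) and 10.4 CPM (MLN replicate 1, 2175 counts). The heart libraries lay above all lymphoid libraries. Because each lymphoid mean rests on a single library, the ratios of means, 821.2 against the spleen and 24.3 against the MLN, are imprecise. In the heart Adora2b was highest in replicate 2. That library had the lowest macrophage, neutrophil, fibroblast, endothelial and cytotoxic lymphocyte sums of the 3. It had the highest dendritic cell, B cell, pan-T and Treg sums. The 7 dendritic cell markers summed to 55.3, 166.2 and 46.6 CPM in replicates 1, 2 and 3, while Adora2b was lower in replicate 1 than in replicate 3. The part of other cells in the Adora2b level was not tested.

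Adora2a (ENSMUSG00000020178; chr10:75316877-75334784, plus strand) encodes the high-affinity receptor. Its levels were 4.51, 17.5 and 29.1 CPM in the spleen (17 ± 12.3), 3.37, 2.26 and 0.506 CPM in the MLN (2.05 ± 1.44) and 1.12, 35 and 0 CPM in the heart (12 ± 19.9). The heart libraries spanned the range of both other organs, so no organ difference that involves the heart could be read. The MLN libraries all lay below the spleen libraries. Of the other adenosine receptors, Adora1 had no count in any library, and Adora3 had none in the 6 lymphoid libraries but 9.06, 35 and 0 CPM in the heart. At a floor of 3 counts per library the heart mean of Adora3 came to 1005-fold that of the spleen and 1114-fold that of the MLN. Without heart replicate 2 these folds were 310.0 and 343.9, and without replicate 3 they were 1507 and 1671. The floor covers counting error only, and Adora3 ranged from 35 to 0 CPM among the heart libraries, so these folds are no lower limits. Adora3 did not pass the filter and was not tested.

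Ada (ENSMUSG00000017697; chr2:163726584-163750239, minus strand) removes adenosine. It stood at 43.7, 48 and 79.3 CPM in the spleen (57 ± 19.4), 122.4, 62.8 and 72.8 CPM in the MLN (86 ± 31.9) and 148.8, 58.4 and 6.33 CPM in the heart (71.2 ± 72.1). The heart libraries held both the highest and the lowest Ada level of the 9. Dpp4 (ENSMUSG00000035000; chr2:62330073-62412231, minus strand), the peptidase CD26 that in humans anchors adenosine deaminase to the cell surface, had 136.4, 220.4 and 135.0 CPM in the spleen (163.9 ± 48.9), 103.5, 157.9 and 176.5 CPM in the MLN (146.0 ± 37.9) and 107.0, 85.4 and 18.5 CPM in the heart (70.3 ± 46.2).

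The heart libraries of Dpp4 lay below those of the spleen but overlapped with the MLN, and relative to pan-T counts they overlapped with both. The heart mean was 2.33-fold lower than that of the spleen. An antisense gene, Gm13561, shares 232 exon bases with Dpp4, and the strand option of the counting is not given in the sources used here, so reads there cannot be told apart. Gm13561 had 1948 to 18148 counts in lymphoid libraries and 0 in all heart libraries. Heart replicate 3 had the lowest heart level of Entpd1, Adora2a, Dpp4 and Ada, whereas its Nt5e and Adora2b levels lay between the other heart libraries. The fitted log2 differences of the heart from the spleen and the MLN, with all libraries, were -0.50 and 2.56 for Adora2a, 9.70 and 4.60 for Adora2b, -1.22 and -1.05 for Dpp4, and 0.32 and -0.27 for Ada. Without heart replicate 3 they were 0.09 and 3.14 for Adora2a, 9.57 and 4.47 for Adora2b, -0.77 and -0.60 for Dpp4, and 0.86 and 0.27 for Ada. Adora2a against the spleen and Ada against the MLN thus changed sign with that library.

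Over the 6 members, 2 lay above the spleen without overlap in the heart and 2 below, where 12.4% and 6.9% of all genes did. Against the MLN, 2 lay above and 1 below, where 14.9% and 11.2% of all genes did. Entpd1 and Adora2b lay above both lymphoid organs, as did 9.48% of genes, and Nt5e below both, as did 3.91%. The members were selected on these comparisons, so nothing is read from the counts.

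Levels can be set beside each other between genes only per length. In the heart the mean order in CPM per kilobase was Adora2b 45.8, Ada 35.6, Dpp4 11.1, Entpd1 6.21, Adora2a 3.93 and Nt5e 3.02. Each neighbouring pair in it overlapped, while Entpd1 and Nt5e did not. In the spleen it was Ada 28.5, Dpp4 25.9, Nt5e 9.04, Adora2a 5.56, Entpd1 3.47 and Adora2b 0.0557, and in the MLN Ada 43, Dpp4 23.1, Nt5e 9.33, Adora2b 1.89, Entpd1 1.64 and Adora2a 0.668. Ada and Dpp4 led in both lymphoid organs. In the spleen, Dpp4 and Nt5e did not overlap, nor did Entpd1 and Adora2b; in the MLN, Ada and Dpp4 did not overlap, nor did Dpp4 and Nt5e, Nt5e and Adora2b, or Entpd1 and Adora2a.

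**Figure D4:**
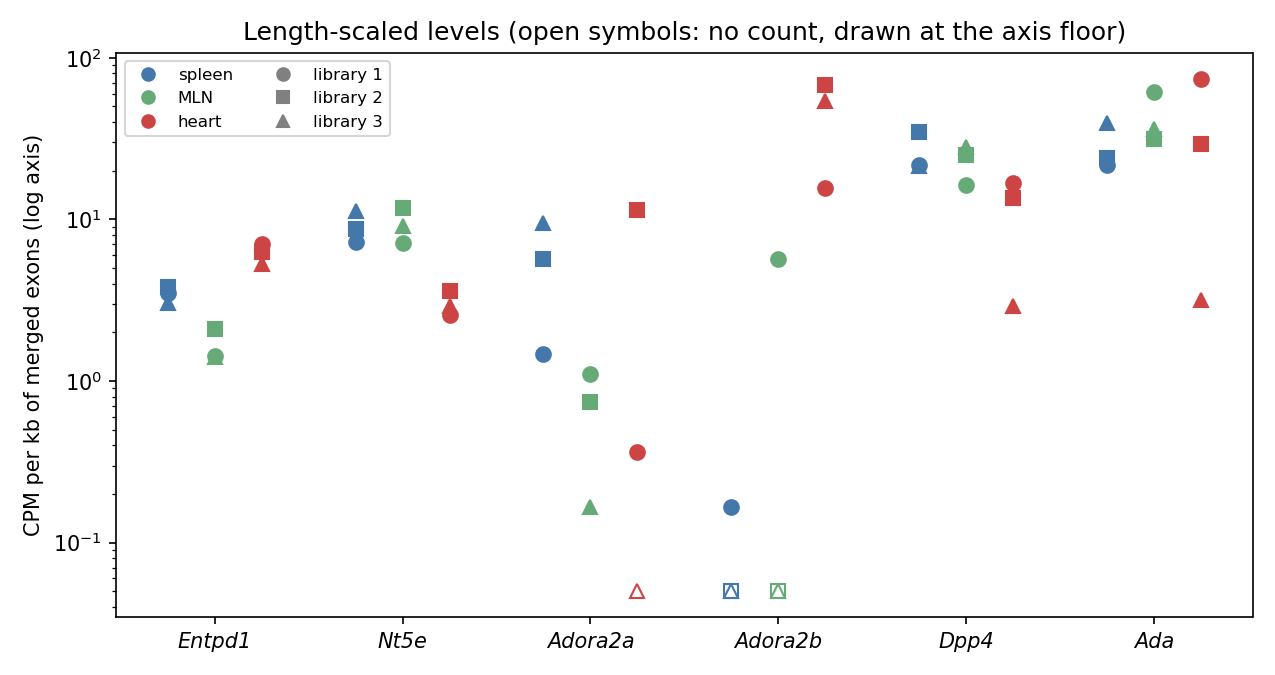
Level of the 6 genes per kilobase of merged exons (CPM per kilobase, log axis) in each library, coloured by organ; open symbols are libraries with no count, drawn at the axis floor. Adora2b has the highest mean in the heart (45.8) and the lowest in the spleen (0.0557).

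Between the lymphoid organs, which the selection did not use, no member passed the edgeR test. Entpd1 had a log2 difference of MLN from spleen of -1.08 (SE 0.44, interval at 95% confidence -2.08 to -0.07) and an edgeR adjusted p of 0.839. Its libraries did not overlap, and its adjusted p ran from 0.00233 by DESeq2 to 1 over the alternatives. DESeq2 called it, and limma-voom called no member. Nt5e differed by 0.05 (SE 0.36, interval -0.77 to 0.86; edgeR adjusted p = 1). Adora2a (-3.06, interval -8.15 to 2.04), Dpp4 (-0.17, interval -1.52 to 1.19) and Ada (0.59, interval -1.41 to 2.60) had edgeR adjusted p-values of 1 and wide intervals. Entpd1 and Adora2a lay lower in the MLN without overlap, 2 of 6 against 4.56% of all genes, and 0 of 6 lay higher against 4.52%. Across all genes edgeR called 0 (0%), with 955 (5.75%) below 0.05 before adjustment. Of the members, Entpd1 alone was below 0.05 before adjustment, at 0.0384. DESeq2 called 727 genes (4.38%) and limma-voom 3 (0.0181%). Adora2b passed the filter only through the heart, and its lymphoid difference rests on 1 library in each organ, so no test is given for it.

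Of 83 further genes of the pathway, 63 passed the filter. Against the spleen edgeR called 0, where it called 0.789% of all genes, and 13 were at an unadjusted p below 0.05, as were 13.6% of all genes. DESeq2 called 9 there (11.3% of all genes) and limma-voom 7 (6.87%). Against the MLN edgeR called 1, where it called 1.38% of all genes and 1.1% as higher in the heart, and 14 were at an unadjusted p below 0.05, as were 15.5% of all genes. DESeq2 called 17 there (13.3% of all genes) and limma-voom 6 (8.02%). In both heart comparisons these unadjusted, DESeq2 and limma-voom counts include genes at 0 in all spleen and MLN libraries. Those genes passed the filter only through the heart. Between MLN and spleen edgeR called 0 (0% of all genes), with 5 at an unadjusted p below 0.05 (5.75% of all genes). DESeq2 called 4 there (4.38% of all genes) and limma-voom 0 (0.0181%). Of the genes called by DESeq2, Adcy9, Enpp2 and Slc29a2 were at 0 in all MLN libraries. The median log2 differences were 0.43 against the spleen (0.02 over all genes tested), 0.70 against the MLN (0.12) and -0.26 between MLN and spleen (0.00). Without overlap, 12 of 63 lay higher and 4 lower in heart than spleen libraries, where 12.4% and 6.9% of all genes did. Against the MLN 17 lay higher and 3 lower, where 14.9% and 11.2% of all genes did.

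The called gene was Pde4b, a phosphodiesterase that breaks down cyclic AMP, the messenger made when the Adora2a or Adora2b receptor is engaged. It had 43, 56.3 and 67.1 CPM in the spleen, 58.7, 59.8 and 56.2 CPM in the MLN and 209.7, 256.5 and 149.2 CPM in the heart. All heart libraries lay above all lymphoid libraries. Heart Pde4b exceeded that of the MLN by 1.82 on the log2 scale (SE 0.34, edgeR adjusted p = 0.0472) and stood 1.89 above the spleen (SE 0.34, edgeR adjusted p = 0.0532). The call against the MLN was lost when any of the 9 libraries was left out and held in 6 of 17 alternatives, with adjusted p from 1.14e-07 to 0.195; without heart replicate 3 the difference was 2.00. Of the other cyclic AMP genes, Crem, a cyclic AMP responsive repressor and activator, had 147.1, 85.7 and 85 CPM in heart libraries and 17.4 to 56.2 CPM elsewhere (log2 1.86 against the MLN, edgeR adjusted p = 0.132). Its heart libraries also lay above the rest. Prkar1a, a regulatory subunit of protein kinase A, and Gnas, which encodes the stimulatory G protein, had log2 differences of 0.69 and 0.38 against the MLN with edgeR adjusted p-values of 0.568 and 0.828.

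Among other enzymes that hydrolyse extracellular nucleotides, edgeR called 0 of 8 tested genes in either heart comparison. At an unadjusted p below 0.05 were 1 against the spleen and 3 against the MLN (13.6% and 15.5% of all genes). In the same order DESeq2 called 1 and 2 of them (11.3% and 13.3%) and limma-voom 2 and 2 (6.87% and 8.02%), all higher in the heart. Each count at an unadjusted p below 0.05, by DESeq2 or by limma-voom includes Entpd2, described below, which passed the filter only through the heart. The other genes at an unadjusted p below 0.05 against the MLN, Enpp2 and Enpp3, were at 0 in all MLN libraries. Nothing is read from these counts. Of the 8 genes, 2 lay above the spleen and 4 above the MLN without overlap, where 12.4% and 14.9% of all genes did. Entpd2 is among both. Bst1, a cell-surface enzyme that uses NAD, had 39.4, 48.4 and 40.4 CPM in the heart against 0, 0 and 7.2 CPM in the spleen and 0.216, 2.68 and 14.7 CPM in the MLN, with edgeR adjusted p of 0.634 and 0.722; limma-voom called it against the spleen. Cd38, another NAD-using enzyme, and Enpp1, a nucleotide pyrophosphatase, overlapped between all organs. Entpd2, a relative of Entpd1 that prefers ATP and was chosen here after its values were seen, was at 0 in all 6 lymphoid libraries and had 16.8, 13.6 and 9.46 CPM in the heart. At the floor of 3 counts per library its heart mean came to 909.9-fold that of the spleen and 1009-fold that of the MLN. The floor covers counting error only, so these folds are no lower limits. Entpd2 passed the filter only through the heart and was selected on these values, so no test is given. Entpd5, Entpd6 and Entpd7, which act on inner membranes, belong to a list of 4. Of it edgeR, DESeq2 and limma-voom called 0 in any comparison, with 0 at an unadjusted edgeR p below 0.05. Of all genes edgeR called 0% to 1.38%, DESeq2 4.38% to 13.3% and limma-voom 0.0181% to 8.02%, depending on the comparison. At an unadjusted edgeR p below 0.05 were 5.75% to 15.5%. With 4 genes nothing is read from these counts. The heart libraries of Entpd5, Entpd6 and Entpd7 each overlapped with those of the spleen. Those of Entpd7 lay above the MLN without overlap, at 7.51, 8.3 and 16.2 CPM against 2.19, 7.24 and 2.09 CPM.

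A list of genes named as P2 receptors, some of which sense the ATP and UDP that CD39 removes, had 10 of 15 genes tested. Against the spleen and the MLN edgeR called 0 and 0, with 3 and 4 at an unadjusted p below 0.05 (13.6% and 15.5% of all genes). DESeq2 called 2 and 5 (11.3% and 13.3%) and limma-voom 1 and 2 (6.87% and 8.02%), all higher in the heart. Each count at an unadjusted p below 0.05, by DESeq2 or by limma-voom includes a gene at 0 in all spleen and MLN libraries. Nothing is read from these counts. Without overlap, 4 lay above the spleen and 5 above the MLN, where 12.4% and 14.9% of all genes did. The gene at 0 in all spleen and MLN libraries is among both. P2ry6, a receptor for UDP, had 22.1, 65 and 83.3 CPM in heart libraries, 8.52, 0.123 and 22 CPM in spleen libraries and 0, 0 and 0.1 CPM in the MLN. The heart libraries lay above both, with edgeR adjusted p of 0.739 and 0.095; DESeq2 and limma-voom called it against the MLN. P2rx7, the ATP-gated channel, and P2ry10 overlapped across organs. In the ATP release list, Panx1, a channel through which ATP leaves cells, had 30.9, 55.6 and 4.12 CPM in the heart against 58.8 to 67.3 CPM in the MLN (edgeR adjusted p = 0.635), and Lrrc8a and Slc17a9 overlapped with both organs. In the list of uptake and removal, Hprt, Nt5c2 and Nt5c3 overlapped between all organs.

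**Figure D5:**
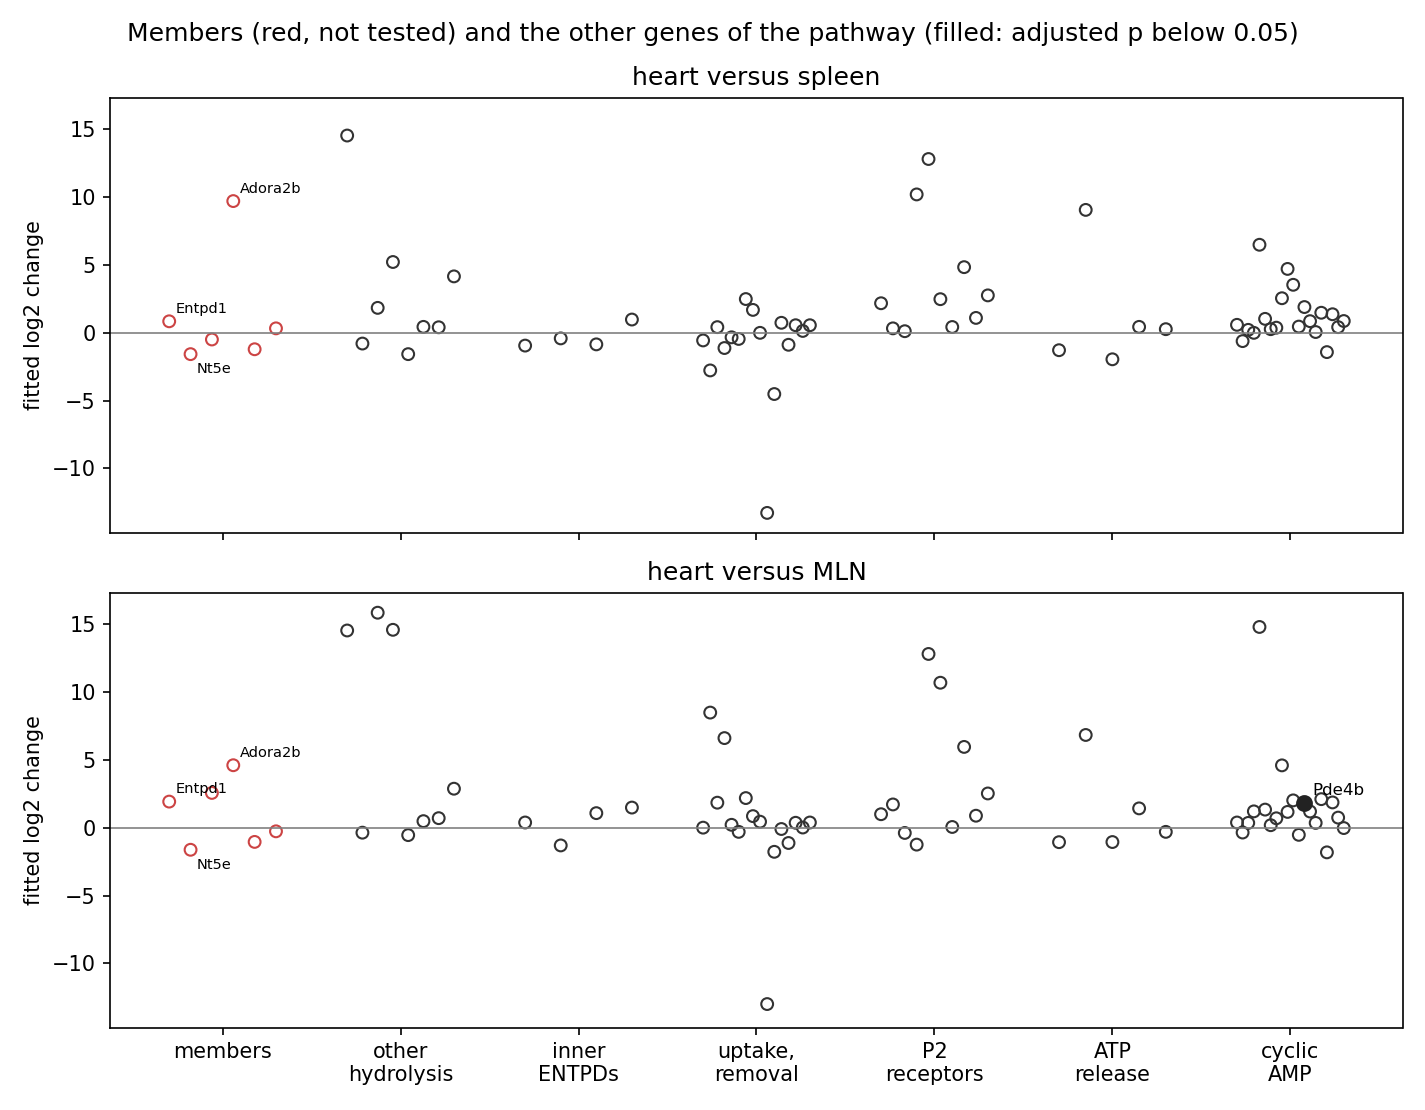
Fitted log2 difference of the heart from the spleen (top) and from the MLN (bottom) for the members (red, not tested) and the other pathway genes. Only Pde4b against the MLN is filled (adjusted p below 0.05); values near 15 or -13 belong to genes with an organ at or near 0, depend on the prior count and are no fold.

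The genes closest in pattern to each member were ranked by Pearson r of log2(CPM + 1) over the 9 libraries, among 7328 named genes with a mean of at least 10 CPM. The libraries share their organ and depth, so the values only describe. Entpd1 was most like Dennd4a (r = 0.981), Ern1 (0.981) and the macrophage marker Cd68 (0.964). Nt5e was most like Prmt3 (0.984), Izumo1r (0.981), the folate receptor of the Treg list, and Tspan32 (0.979). Adora2b was most like Met (0.990), Cask (0.979) and Dmkn (0.977). Adora2a was most like U2af2 (0.939), Cdk11b (0.937) and Ucp2 (0.934). Dpp4 was most like Rnaseh2a (0.957), Pms1 (0.950) and Fcrl1 (0.950), and Ada like Rapsn (0.939), Psmd7 (0.930) and Ankfy1 (0.930).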

How the data were processed

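RNA was sequenced in 9 Treg libraries, 3 per organ, and the authors deposited raw read counts per gene. The submitters' processing notes name CASAVA 1.8.2, HISAT2, HTSeq 0.6.0 and mm10. Neither strand option nor annotation release is given in the sources used here. All 9 columns were used and 0 left out. Of the gene identifiers, 49412 were found in GENCODE vM21, which gave coordinates and merged exon lengths; 84 symbols are shared by several genes.

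Counts were tested with edgeR 4.0.16 in R 4.3.3 (minimum count 10, minimum total 15, trimmed mean of M-values, quasi-likelihood, 1 term per organ, 6 residual degrees of freedom, two-sided), adjusted by Benjamini-Hochberg over 16609 genes and called below 0.05. Alternatives used DESeq2 1.42.0, limma 3.58.1 (voom), other scalings and filters, the replicate number as a block, organs fitted alone and each library left out. The script was tested on simulated data with a lower dispersion than these libraries and larger changes than those of Entpd1 and Nt5e. This checks the code and not its power here. The members and gene lists were chosen with earlier results of these data known. Named genes are all members, called pathway genes, the 3 most abundant per pathway list and the 3 most similar to each member; Entpd2 was added after its values were seen. Macrophage marker Itgam has more than 1 row, and the one with the most counts was used.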

Additional observations from a re-analysis of the deposited data

How the results depend on the processing

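Genes called by edgeR numbered 131 in heart against spleen, 230 in heart against MLN and 0 in MLN against spleen. In that order DESeq2 called 1875, 2211 and 727, and limma-voom 1141, 1332 and 3. Scaling to the pan-T list gave 396 and 596 in the heart comparisons, and organs fitted alone 292 and 548. The replicate block gave 0 and 0, with 1780 and 2077 at an unadjusted p below 0.05; the replicate numbers were not taken to pair the libraries, since deviations of same-numbered libraries correlated at -0.12 to 0.11. Leaving out 1 library gave 0 to 122 and 0 to 249, with 2067 to 2788 and 2161 to 3228 at an unadjusted p below 0.05; against spleen the count was 0 without spleen replicate 1 or 2 or heart replicate 3, and against MLN without MLN replicate 1 or heart replicate 3. Scaling to the pan-T list moved the median of all genes to 0.83 against the spleen and 1.01 against the MLN, and 90.4% and 92.3% of calls were then higher in the heart, against 77.9% and 79.6%.

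In the heart, Entpd1 and Nt5e kept their direction under all 17 alternatives. The log2 differences from the spleen and the MLN were 0.74 to 1.64 and 1.81 to 2.83 for Entpd1. For Nt5e they were -1.73 to -0.75 and -1.79 to -0.71. The values nearest to 0 for Nt5e and farthest for Entpd1 were those scaled to the pan-T list. Both genes were selected for these directions, so the ranges describe the processing and lend the directions no support. DESeq2 called Entpd1 lower in the MLN than in the spleen (-1.12). Nt5e between MLN and spleen was -0.04 scaled to the pan-T list and -0.16 to 0.23 with 1 library left out. Adora2a in heart against spleen was 0.16 scaled to the pan-T list and -4.92 to 0.13 with 1 library left out, and against MLN -1.69 by limma-voom and -1.87 to 3.14. Ada against spleen was -0.61 by limma-voom, -0.16 with the replicate block and -0.81 to 0.86 with 1 library left out, and against MLN 0.49 scaled to the pan-T list and -1.41 to 0.27. Adora2b was at 9.10 to 17.36 against spleen and 4.01 to 17.20 against MLN. It passed the filter only through the heart, so nothing is read from this direction. Between MLN and spleen, Adora2b ran from -7.50 to 12.65 and Dpp4 from -0.32 to 0.09 with 1 library left out. Without spleen replicate 1 or MLN replicate 1, the remaining Adora2b libraries of that organ were at 0. The values then found (17.25 against spleen, 17.20 against MLN, and 12.65 and -7.50) depend on the prior count and are no fold. The cause was not tested. Adora2b between MLN and spleen has no value with organs fitted alone, where it failed the filter. Of 305 member values, 274 stayed the same, 12 moved, 18 reversed in sign and 1 passed the test anew. In the heart comparisons, same meant the same sign and a distance from the main value below 1 SD between libraries on the log2 scale. Moved meant the same sign and a larger distance. This SD was as wide as 2.43 for Adora2a against the spleen, so same can cover a large shift. Between MLN and spleen, same meant the same sign and the same call.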
